A study of Mus musculus with 15 samples.

Results

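The transcripts described here are those of the proteasome, taken as every gene symbol in the deposited count tables that starts with Psma, Psmb, Psmc, Psmd, Psme, Psmf or Psmg followed by a digit. There were 50 such genes among 24499 symbols, and 49 of them had enough reads to be tested, among 14778 tested genes. They were sorted by role into 14 constitutive 20S subunits (7 alpha, 4 non-catalytic beta and 3 catalytic beta), 3 immunoproteasome subunits (Psmb8, Psmb9 and Psmb10), 17 subunits of the 19S regulator (6 ATPases and 11 others), 3 chaperones of the 19S base, 4 activators, and 5 genes for 20S assembly chaperones and the inhibitor Psmf1. The other 4 are Psme2b, a copy of Psme2; Psma8, a testis subunit; Psmb11, a thymus subunit; and Psmc3ip, a meiotic recombination factor whose symbol matches the rule although it is no proteasome subunit.

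The proteasome degrades proteins tagged with ubiquitin. Its 20S core is a barrel of alpha and beta rings, in which Psmb5, Psmb6 and Psmb7 hold the constitutive active sites, and its 19S caps recognise, unfold and feed in the substrate. Under interferon-gamma, and in many immune cells without it, Psmb8, Psmb9 and Psmb10 replace Psmb5, Psmb6 and Psmb7 in newly built cores, which shifts the peptides made for MHC class I, and the PA28 activator of Psme1 and Psme2 is induced with them. When proteasome capacity falls short, the transcription factor NRF1 (Nfe2l1) raises the constitutive and 19S genes together through antioxidant response elements, and in hepatocytes proteasome activity is known to be sensitive to chronic ethanol.

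The 15 libraries were made from liver RNA of male, adult mice of the strain C57BL/6, which all groups shared. Animals carried either carbon tetrachloride (CCl4), a liver toxin, or a treatment that the labels call OO and do not spell out. CCl4 was injected into the abdomen at 0.2 ml/kg, 2 times a week over 6 weeks, and the day 20 CCl4 arms went on at 0.5 of that dose. Ethanol, raised to 25 g/kg per day over 3 weeks through a tube in the stomach, came with a high-fat diet in the labels, and the arms without it received chow, so ethanol and diet cannot be told apart. The groups were OO at day 0 (libraries 1 and 2), CCl4 at day 0 (3 and 4), OO with chow at day 20 (12), OO with ethanol at day 20 (13, 14 and 15), CCl4 with chow at day 20 (16 and 17), CCl4 with ethanol at day 20 (18, 19 and 20), and at day 23 OO with chow (5) and OO with ethanol (6). The labels do not say whether libraries of a group came from separate animals, so p-values speak only of the spread among libraries.

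Some libraries stood apart. Gene counts per library ran from 10347844 to 28843258. Hepatocyte markers dominated every library, at a summed 40946 to 73309 CPM (a gene's counts relative to the library's total, scaled by the TMM method). Libraries 12 and 6 carried exocrine pancreas transcripts, at a summed 170.6 and 172 CPM against 5.52 to 14.0 in the others, where several pancreas markers were at 0. Libraries 13 and 16 had the highest shares of unaligned reads, and across 8265 genes with a mean above 10 CPM their deviations from the other libraries of their groups had a Pearson r of 0.52, given as a description. Both were run on lane 3, as libraries 2 and 14 were, according to the file names. Some counts without libraries 13 and 16 stand beside their results, and others only in the later section on dependence on the processing. Without libraries 6 and 12, the number of called proteasome genes was unchanged in the 5 comparisons that do not use library 12. For CCl4 against OO under ethanol it stayed at 29. Those 5 comparisons use neither library, and each library is alone in its group, so their counts could hardly change. The part of the pancreas transcripts was not tested by that fit. The other 4 comparisons need a chow control, for which library 5 was tried instead. The sample titles put libraries 5 and 6 in Study 2-3, libraries 12 to 20 in Study 2-4, and give the day 0 libraries no such number, so day and study cannot be told apart.

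RefSeq promoter windows (build GRCm38.p6, 250 bases before to 50 bases after the annotated start) were found for 42 of the 50 genes, and not for Psma8, Psmb1, Psmb2, Psmb7, Psmc3, Psmd3, Psmd7 and Psmg2. They were searched on both strands for the antioxidant response element TGACNNNGC, the gamma-activated site TTCNNNGAA (GAS) and the interferon-stimulated response element (ISRE, GAAA, any 2 bases, GAAA). No match overlapped a match of another motif. Below are stretches of Psmb5, Psmb6 and Psmd9, each with an antioxidant response element in capitals, and of Psmb8, with its GAS in capitals. Psmb5 and Psmb6 encode constitutive active sites and Psmd9 a 19S base chaperone. The printed genes have a match and are described further on. Psma5, Psmb9 and Psmb10, also described there, had no match of any of these motifs. Psmb5 is chr14:54618023-54618142, minus strand. Psmb6 is chr11:70525327-70525356, plus strand. Psmd9 is chr5:123228070-123228189, plus strand. Psmb8 is chr17:34198088-34198117, plus strand.
Psmb5: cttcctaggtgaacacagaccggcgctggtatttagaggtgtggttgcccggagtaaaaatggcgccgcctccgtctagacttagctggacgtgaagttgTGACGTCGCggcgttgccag
Psmb6: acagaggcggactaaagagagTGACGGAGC
Psmd9: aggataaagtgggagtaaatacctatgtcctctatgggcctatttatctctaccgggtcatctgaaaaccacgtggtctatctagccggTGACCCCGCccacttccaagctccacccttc
Psmb8: tcctccgctgTTCCCAGAAgatgccccccc
The element of Psmb5 began 47 bases before the start, that of Psmb6 9 bases before it and that of Psmd9 31 bases before it, and the GAS of Psmb8 began 97 bases before the start. The antioxidant response element was found in 6 of the 42 genes (the 3 printed and Psmd12, Psmc6 and Psme4), which is 14.3%, against 12.4% of all 32851 windows. The GAS was found in 3 of 42 (Psmb8, Psmd2 and Psmg1), or 7.14%, against 8.3% of all windows, and the ISRE in 5 of 42 (Psmd4, Psmd9, Psmb3, Psmg4 and Psme1), or 11.9%, against 3.44%. A gene was counted if any of its windows matched, whereas the share of all windows counts each window singly, so the units differ. A match describes the letters of the window and is no evidence of binding.

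Per length, the constitutive subunits were the more abundant catalytic partners in all 15 libraries. In CPM per kb of the principal transcript, Psmb6 had the highest median level of all 50 genes (131, range 98.3 to 229), followed by Psmb4 (94.2) and Psma7 (87.2), whose ranges over libraries overlap. Median levels per kb were 77.0 for Psmb5 and 83.5 for Psmb7, against 19.2 for Psmb8, 10.3 for Psmb9 and 22.1 for Psmb10. The range of Psmb9 (5.12 to 12.9 CPM per kb) overlapped that of Psmb8 (10.9 to 25.0) at its upper end, and Psmb8 and Psmb10 (15.5 to 29.5) overlapped over most of their ranges. Psmb5 varied most among the core subunits, with 3.19 times as much in its highest library as in its lowest, whereas the 19S chaperone Psmd10 varied by 1.38 times. Psma8 stayed at or below 2.27 CPM, Psmc3ip at or below 1.26 CPM, and Psmb11 had 3 reads in all and was not tested.

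**Figure D1:**
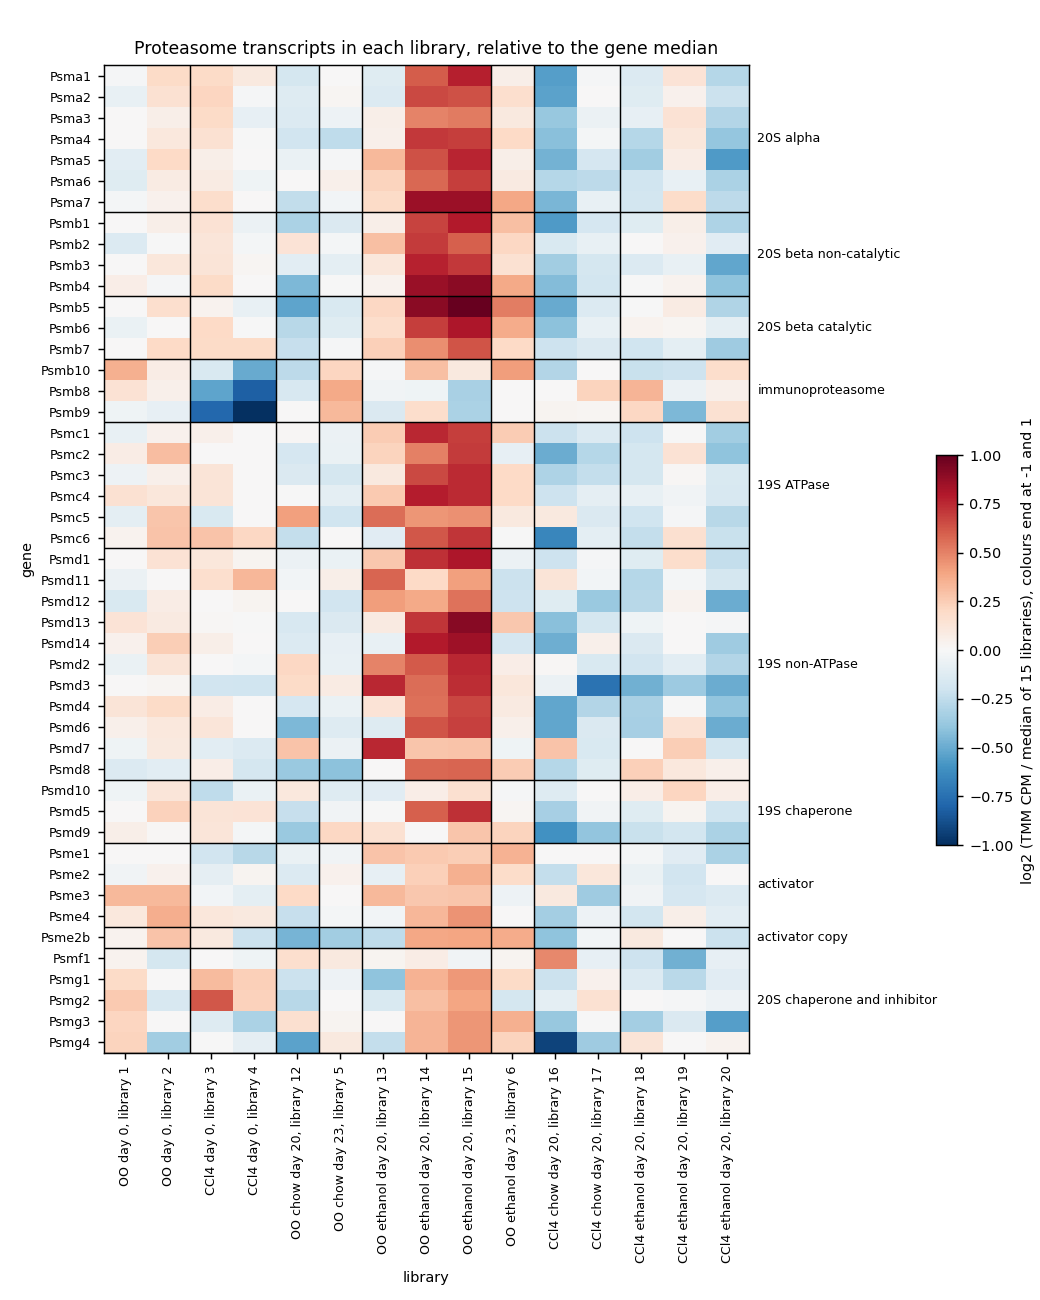
Colour shows each gene's TMM-scaled CPM in each of 15 libraries as a log2 ratio to its median over the libraries, with colours ending at -1 and 1; rows are genes by role and columns are libraries by group. Libraries 14 and 15 (OO with ethanol, day 20) are red across nearly all 20S and 19S genes, library 13 is red for fewer of them, and Psmb8 and Psmb9 are blue in the CCl4 day 0 libraries 3 and 4.

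The clearest pattern was in the 20S and 19S genes of OO animals given ethanol at day 20. The summed level of the 14 constitutive 20S genes was 1249, 1859 and 1955 CPM in libraries 13, 14 and 15, against 866 to 1365 CPM in the 12 other libraries. Libraries 14 and 15 were thus above every library outside their group, while library 13 lay inside the range of the others. Library 6, OO with ethanol at day 23, was the highest of those 12, at 1365 CPM. Library 15 held the highest value of 28 of the 49 tested genes and library 14 of 7, and over all tested genes these 2 libraries were highest for 8.18% and 5.29%. The 17 subunits of the 19S regulator summed to 1694, 2146 and 2278 CPM in libraries 13, 14 and 15 and to 1182 to 1529 CPM elsewhere, without overlap. For these, library 6 was at 1478 CPM, below OO library 2 of day 0 (1529 CPM).

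At day 20 under ethanol, 3 CCl4 libraries were set against 3 OO libraries. CCl4 went on at a reduced dose in these CCl4 animals, so ethanol with continued CCl4 stands beside ethanol without CCl4. Of the 49 tested genes, 29 were lower in the CCl4 libraries and 0 higher, by edgeR's quasi-likelihood test with a Benjamini-Hochberg adjusted p under 0.05, and 36 were lower at an unadjusted p under 0.05, against 17.9% of all genes. Over all genes 23.7% were called in this comparison, made up of 12.7% higher and 11.0% lower. The log2 change had a median of -0.57 over the 49 genes and of -0.04 over all tested genes. Lower were 4 of 7 alpha subunits, all 4 non-catalytic and all 3 catalytic beta subunits, 5 of 6 ATPases, 8 of 11 other 19S subunits, 2 of 3 base chaperones (Psmd5 and Psmd9), 2 of 4 activators (Psme1 and Psme3), 1 of 5 assembly and inhibitor genes (Psmg3, an assembly chaperone) and 0 of 3 immunoproteasome subunits. All 31 core subunits had a negative log2 change, from -1.13 to -0.28.

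Psmb5, the chymotrypsin-like active site (chr14:54614119-54618022, minus strand, GENCODE M21), was at 79.7, 129 and 153 CPM in OO libraries 13, 14 and 15 and at 69.2, 73.3 and 56.2 CPM in CCl4 libraries 18, 19 and 20. All CCl4 values lay below all OO values, library 13 being close to library 19. Group levels were 120.8 ± 37.6 CPM (SD, n = 3) and 66.2 ± 8.89 CPM (SD, n = 3), and the log2 change was -0.87 ± 0.21 (SE; edgeR's quasi-likelihood test, Benjamini-Hochberg adjusted p = 0.0116). Psmb7, the trypsin-like active site (chr2:38588036-38644087, minus strand), was at 114.5, 134 and 149.7 CPM under OO and at 84.3, 90.4 and 75.9 CPM under CCl4. Its groups did not overlap either, with a log2 change of -0.67 ± 0.12 (SE; edgeR, adjusted p = 0.00264). Psmb6, the caspase-like active site (chr11:70525367-70527858, plus strand), was at 118, 168 and 182 CPM against 106.6, 105.7 and 97.2 CPM. That is again a separation without overlap, with library 13 the lowest of the OO libraries, and a log2 change of -0.60 ± 0.16 (SE; edgeR, adjusted p = 0.0185).

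The largest change among the 29 was that of Psmd3, a scaffold subunit of the 19S lid (chr11:98682554-98695979, plus strand). It was at 81.3, 71.4 and 80.8 CPM under OO and at 34.6, 37.6 and 34.3 CPM under CCl4. Both groups were tight and far apart, with library 13 the highest of all, and the log2 change was -1.13 ± 0.15 (SE; edgeR, adjusted p = 0.000449), or 2.19-fold lower. Psmd2, the large scaffold of the 19S base, was at 253, 275 and 303 CPM against 157, 167 and 147 CPM, with a log2 change of -0.82 ± 0.12 (SE; edgeR, adjusted p = 0.000613). Psma5, an alpha-ring subunit, was at 64.0, 79.6 and 86.9 CPM against 40.3, 54.0 and 34.5 CPM, a gap between the groups of which library 19 is the closest on the CCl4 side (log2 change -0.84 ± 0.18, SE; edgeR, adjusted p = 0.00577). Psmb3, a beta-ring subunit, was at 64.4, 102 and 97.6 CPM against 54.3, 56.8 and 41.7 CPM, without overlap. Psmb4, another beta-ring subunit, was at 113.9, 203 and 208 CPM against 111, 114.0 and 84.2 CPM, where OO library 13 fell just below CCl4 library 19. Psmb3 and Psmb4 changed by -0.79 ± 0.17 and -0.76 ± 0.21 (log2, SE; edgeR, adjusted p = 0.00719 and 0.0215).

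**Figure D2:**
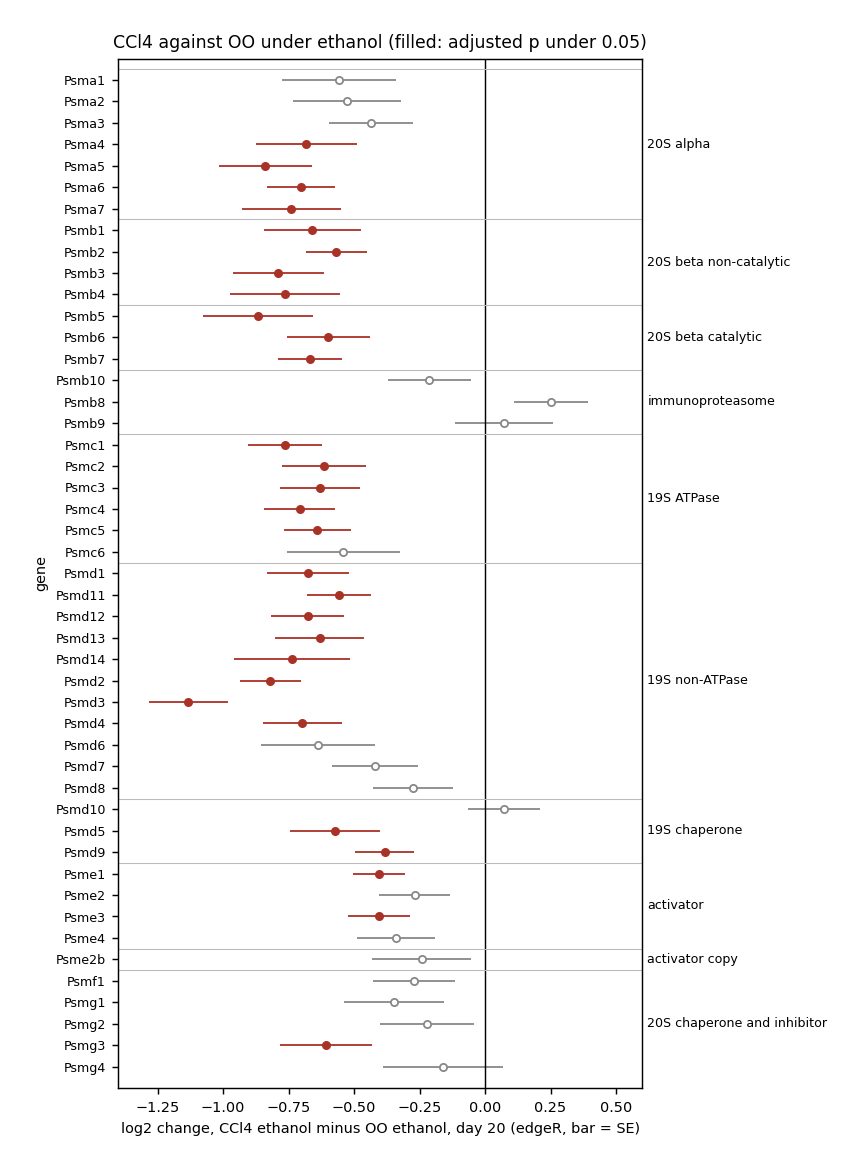
Each point is the edgeR log2 change of a gene between CCl4 with ethanol and OO with ethanol at day 20 (3 against 3 libraries), bars are SE, and filled points have an adjusted p under 0.05. The 14 constitutive 20S genes lie between -0.87 and -0.44 and the 3 immunoproteasome genes between -0.21 and 0.25.

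None of the 3 immunoproteasome subunits passed in this comparison, and all 3 overlapped between the groups. Psmb8 (chr17:34197721-34201454, plus strand) was at 30.5, 30.3 and 25.0 CPM in the OO libraries and at 39.5, 30.04 and 32.5 CPM in the CCl4 libraries, which overlap (log2 change 0.25 ± 0.14, SE; edgeR, adjusted p = 0.226). Psmb9 (chr17:34181987-34187764, minus strand), at 12.6, 15.7 and 11.2 CPM against 16.0, 10.2 and 15.4 CPM, and Psmb10 (chr8:105935735-105938444, minus strand), at 28.7, 35.6 and 30.9 CPM against 24.8, 25.0 and 32.7 CPM, overlapped as well. Their log2 changes were 0.07 ± 0.19 and -0.21 ± 0.16 (SE; edgeR, adjusted p = 0.824 and 0.372). Of the PA28 pair, Psme1 (chr14:55578123-55581529, plus strand) was at 75.996, 75.0 and 73.9 CPM against 61.8, 57.8 and 50.1 CPM, without overlap, and its log2 change was -0.41 ± 0.10 (SE; edgeR, adjusted p = 0.0126). Psme2 (chr14:55587441-55591113, minus strand) was at 42.1, 52.5 and 57.2 CPM against 42.6, 39.0 and 44.6 CPM, which overlap, with a log2 change of -0.27 ± 0.13 (SE; edgeR, adjusted p = 0.178).

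The separation by library was as follows. All CCl4 values lay below all OO values for 27 of the 49 genes, against 17.4% of all genes, and above them for 1 (Psmc3ip), against 18.8%. The 31 core subunits gave 22 of the 27. The count of 29 lower genes fell to 15 without OO library 15, to 19 without OO library 14, to 17 without CCl4 library 18 and to 15 without CCl4 library 20, and it rose to 38 without OO library 13. It was 39 without libraries 13 and 16, and 15 when only the 6 libraries compared were fitted. Psmb5 lost its call without OO library 15 and without CCl4 library 20 (edgeR, adjusted p = 0.0508 and 0.0507, over 13 alternatives 0.000589 to 0.0508). Under every one of the 13 alternatives tried, 14 genes passed: Psma5, Psma6, Psmb2, Psmb3, Psmb7, Psmc1, Psmc4, Psmc5, Psmd1, Psmd2, Psmd3, Psmd4, Psmd11 and Psmd12.

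Genes that build, regulate or work with the proteasome were looked at in the same comparison. Pomp, the chaperone that starts beta-ring assembly, was at 72.6, 108 and 124 CPM under OO and 59.8, 74.1 and 63.1 CPM under CCl4, which overlap by library 19, and it fell by 0.63 ± 0.18 on the log2 scale (SE; edgeR, adjusted p = 0.0265). With Pomp, 4 of 15 assembly and associated factors fell and 0 rose, against 11.0% of all genes that fell, among them Adrm1, the ubiquitin receptor of the 19S base (-0.87 log2), and Ubqln1 (-0.44 log2), a shuttle that carries tagged proteins to it. Of 14 genes of the NRF1 and NRF2 axis 4 fell and 1 rose, against 11.0% and 12.7% of all genes. Nfe2l1, which encodes NRF1, was at 220, 149 and 165 CPM against 94.2, 100.5 and 122 CPM, without overlap and highest in library 13, and fell by 0.75 ± 0.18 (log2, SE; edgeR, adjusted p = 0.00991). Gclc and Gclm, which make glutathione, and Nqo1, a quinone reductase, fell by 1.24, 0.55 and 1.38 on the log2 scale. Nfe2l2, which encodes NRF2, rose, by 0.75 ± 0.18 (log2, SE; edgeR, adjusted p = 0.0113).

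Among proteotoxic stress genes 4 of 9 fell, against the same 11.0%: Hspb1, a small heat-shock protein, by 3.26, Hspa1a and Hspa1b, the inducible HSP70 pair, by 3.80 and 2.61, and Sqstm1, an autophagy receptor for tagged proteins, by 0.63 on the log2 scale. Hspa1a and Hspa1b are near-identical copies, so their split of reads is uncertain. Of 12 ubiquitin genes 2 fell, a share near that of all genes: Vcp, the segregase that extracts tagged proteins (-0.55 log2), and its partner Nploc4 (-0.44 log2), and the polyubiquitin gene Ubb did not pass. Of 16 interferon and IRF regulators 3 rose and 0 fell, also near the 12.7% of all genes that rose: Ciita, the MHC class II transactivator (1.55 log2), Irf8, a transcription factor of macrophages and dendritic cells (1.17 log2), and Ifngr1, a chain of the interferon-gamma receptor (1.13 log2). Irf1 and Nlrc5, which drive immunoproteasome and MHC class I genes, had log2 changes of -0.23 and -0.33, and neither passed. Of 11 MHC class I processing genes 1, H2-K1, fell (-0.60 log2), again near the share of all genes, and Tap1 and B2m did not pass (0.11 and -0.12 log2).

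Macrophage and dendritic markers moved in the opposite direction. All 9 of 9 rose in the CCl4 libraries of this comparison, their summed level being 331 to 421 CPM under OO and 1072 to 1203 CPM under CCl4, and Ptprc, the pan-leukocyte CD45, rose by 1.46 on the log2 scale. T cell, NK cell and B cell markers each summed to at most 6.29 CPM in any of these 6 libraries. Hepatocyte markers summed to 47425, 40946 and 45937 CPM in OO libraries 13, 14 and 15. In CCl4 libraries 18, 19 and 20 that sum was higher, at 62192, 49100 and 62850 CPM. Stellate markers summed to 173 to 217 CPM under OO and to 323 to 449 CPM under CCl4. The sums of endothelial and cholangiocyte markers overlapped between the groups. In bulk RNA, fewer cells of a type and less RNA per cell cannot be told apart, and the part of cell composition in the proteasome changes was not tested.

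Ethanol was set against chow within OO animals at day 20, with 3 libraries against the single library 12. Of the 49 genes 1 passed, Psmb5, which rose (edgeR's quasi-likelihood test, Benjamini-Hochberg adjustment), against 3.64% of all genes in either direction and 1.22% in the higher one. Psmb5 was at 48.1 CPM in library 12, below each of the 3 ethanol libraries given above, and its log2 change was 1.33 ± 0.32 (SE; edgeR, adjusted p = 0.0452). Psmb7 was at 82.4 CPM in library 12, and Psmb6 at 85.8 CPM, likewise below all 3, with log2 changes of 0.69 ± 0.18 and 0.87 ± 0.24 (SE; edgeR, adjusted p = 0.0606 and 0.0703). The median log2 change was 0.56 over the 49 genes and 0.01 over all tested genes, and 30 of the 49 had an unadjusted p under 0.05, all in the higher direction, against 9.38% of all genes. All 3 ethanol libraries were above library 12 for 39 of 49 genes, against 27.5% of all genes, and below it for 3, against 29.9%.

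The immunoproteasome genes gave small values in that comparison. Library 12 was at 28.1 CPM for Psmb8, 13.9 CPM for Psmb9 and 24.1 CPM for Psmb10. The ethanol libraries lay on both sides of it for Psmb8 and Psmb9 and above it for Psmb10, and the log2 changes were 0.03 ± 0.20, -0.07 ± 0.27 and 0.40 ± 0.23 (SE; edgeR, adjusted p = 0.96, 0.915 and 0.383). Psme1 and Psme2 changed by 0.33 ± 0.14 and 0.32 ± 0.19 (log2, SE; edgeR, adjusted p = 0.235 and 0.408). Of the lists, 2 of 14 genes of the NRF1 and NRF2 axis rose, Nqo1 (2.39 log2) and Srxn1, which repairs oxidised peroxiredoxins (1.74 log2), 1 of 9 proteotoxic stress genes rose, Hspb1 (3.01 log2), and 2 of 16 interferon and IRF regulators fell, Ciita (-1.92 log2) and Irf7 (-1.45 log2). Over all genes 3.64% were called in either direction. Nfe2l1 was at 111 CPM in library 12 and Pomp at 65.4 CPM, both below the 3 ethanol libraries, and neither passed (log2 changes 0.68 ± 0.26 and 0.64 ± 0.27, SE; edgeR, adjusted p = 0.18 and 0.22). Irf1 (0.45 log2), Nlrc5 (-0.05 log2), Tap1 (-0.15 log2) and B2m (0.03 log2) did not pass either.

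This count depended on single libraries. It was 25 without library 13, 31 without libraries 13 and 16, 0 without library 14 and 0 without library 15. With the OO chow library of day 23 (library 5) as the control, which also crosses from Study 2-4 to Study 2-3, it was 0, and with both chow libraries as the control it was 11, all higher. DESeq2 called 11, and with only the 4 libraries compared 0 passed. Library 12 also carried pancreas transcripts, and its macrophage and dendritic markers summed to 1129 CPM, against 331 to 421 CPM in the ethanol libraries and 719 CPM in library 5, with all 9 markers lower under ethanol. Their part in the proteasome values was not tested, and with 1 control library the library and the chow arm cannot be told apart.

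**Figure D3:**
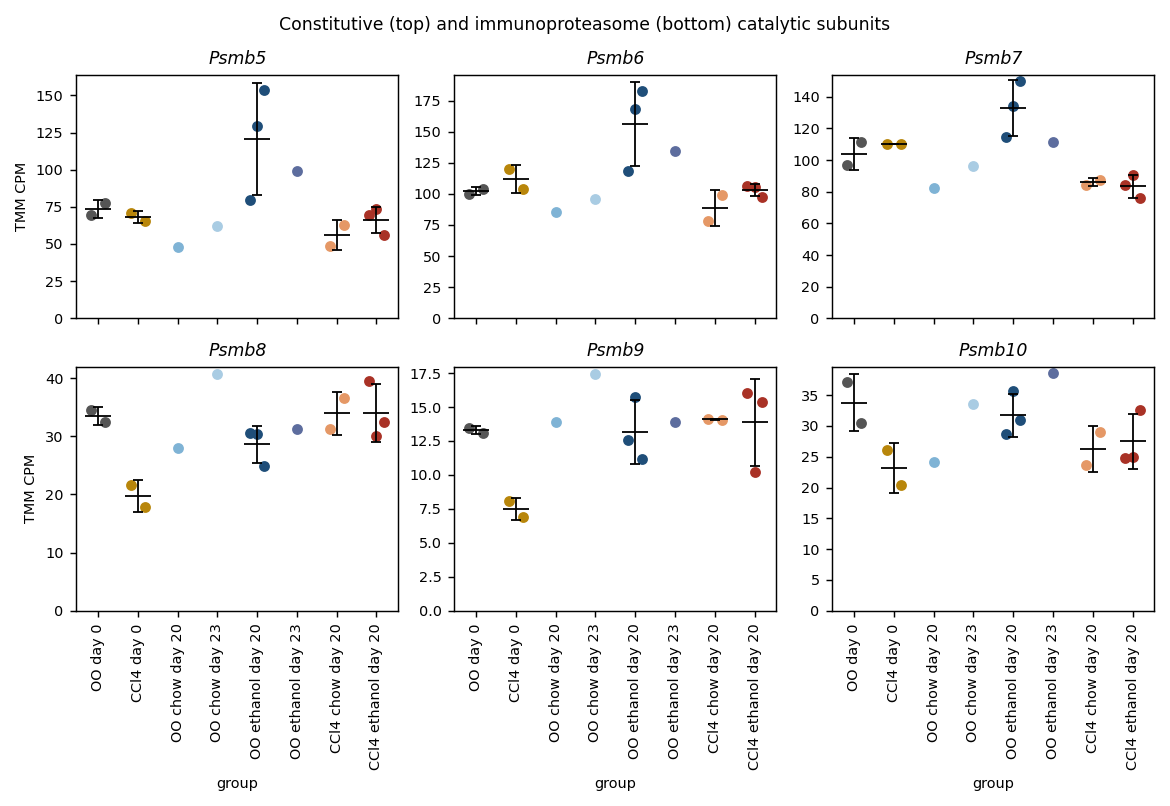
Each point is a library's TMM-scaled CPM for a constitutive catalytic subunit (top) or its immunoproteasome counterpart (bottom) in 8 groups, and bars are mean ± SD for groups with more than 1 library. Psmb5, Psmb6 and Psmb7 are highest in libraries 14 and 15 of OO with ethanol at day 20, and Psmb8 and Psmb9 are lowest in the 2 CCl4 day 0 libraries.

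In CCl4 animals the same ethanol against chow comparison (3 libraries against 2) gave 0 called genes of 49 by edgeR's quasi-likelihood test, against 1.27% of all genes, with 1 higher and 1 lower at an unadjusted p under 0.05 (5.4% and 6.43% of all genes) and 0 called by DESeq2. Values without overlap were higher for 6 genes and lower for 2, against 13.1% and 13.5% of all genes. Psmb5 was at 48.7 and 62.9 CPM in chow libraries 16 and 17, Psmb6 at 78.4 and 98.8 CPM, and Psmb7 at 84.1 and 87.7 CPM. The 3 ethanol values given above overlapped them for Psmb5, Psmb6 and Psmb7. Log2 changes were 0.25 ± 0.23, 0.22 ± 0.18 and -0.04 ± 0.14 (SE; edgeR, adjusted p = 0.752, 0.707 and 0.948), and the median over the 49 genes was 0.06. Psmb8, Psmb9 and Psmb10 changed by 0.01 ± 0.16, -0.02 ± 0.21 and 0.06 ± 0.18 (log2, SE), none past the threshold. Psme1 was at 62.8 and 62.7 CPM and Psme2 at 37.9 and 48.3 CPM in the chow libraries, and neither passed. Of the 6 pathway lists 0 genes passed, with Pomp at 0.05, Nfe2l1 at 0.03, Irf1 at -0.12, Nlrc5 at -0.20, Tap1 at -0.05 and B2m at 0.04 (log2).

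Whether the ethanol change differed between CCl4 and OO animals was tested as an interaction. None of the 49 genes passed by edgeR's quasi-likelihood test, against 0.0135% of all genes, and DESeq2 also called 0. The log2 difference of the changes was negative for all 31 core subunits, with a median of -0.63 for the constitutive 20S and -0.50 for the 19S subunits, against -0.03 over all tested genes. At an unadjusted p under 0.05 there were 10 genes, all negative, against 3.53% of all genes in that direction. Psmb5 had the largest value of the constitutive catalytic subunits (-1.08 ± 0.39, SE; edgeR, adjusted p = 0.428), and Psmb8 was at -0.02 ± 0.25 and Psmb9 at 0.05 ± 0.34 (SE), neither past the threshold. Without libraries 13 and 16, 7 genes passed in the negative direction: Psmb4, Psmb5, Psmb6, Psmc4, Psmd5, Psmd13 and Psmd14, with log2 values from -1.48 for Psmb5 to -0.77 for Psmc4. This test shares its groups with the comparisons above and rests on the single OO chow library 12. With library 5 as that control, or both, 0 genes passed as well.

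CCl4 against OO under chow at day 20 (2 libraries against 1) gave 0 of 49 by edgeR, against 0.189% of all genes, with 2 at an unadjusted p under 0.05, both lower, against 2.55% of all genes, and 0 by DESeq2. The median log2 change was -0.07. CCl4 with ethanol against OO with chow (3 against 1) also gave 0 of 49, against 2.8% of all genes, with 1 higher and 3 lower at an unadjusted p under 0.05 (9.45% and 8.6% of all genes) and 0 by DESeq2, and a median log2 change of 0.04. Both use library 12 as their only control. With library 5 in its place both gave 0, and with both chow libraries they gave 0 and 1, the 1 being lower. Psmb5, at 48.1 CPM in library 12, differed from the CCl4 ethanol libraries by 0.46 ± 0.30 (log2, SE; edgeR, adjusted p = 0.457), and Psmb8 by 0.28 ± 0.20 (adjusted p = 0.496).

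**Figure D4:**
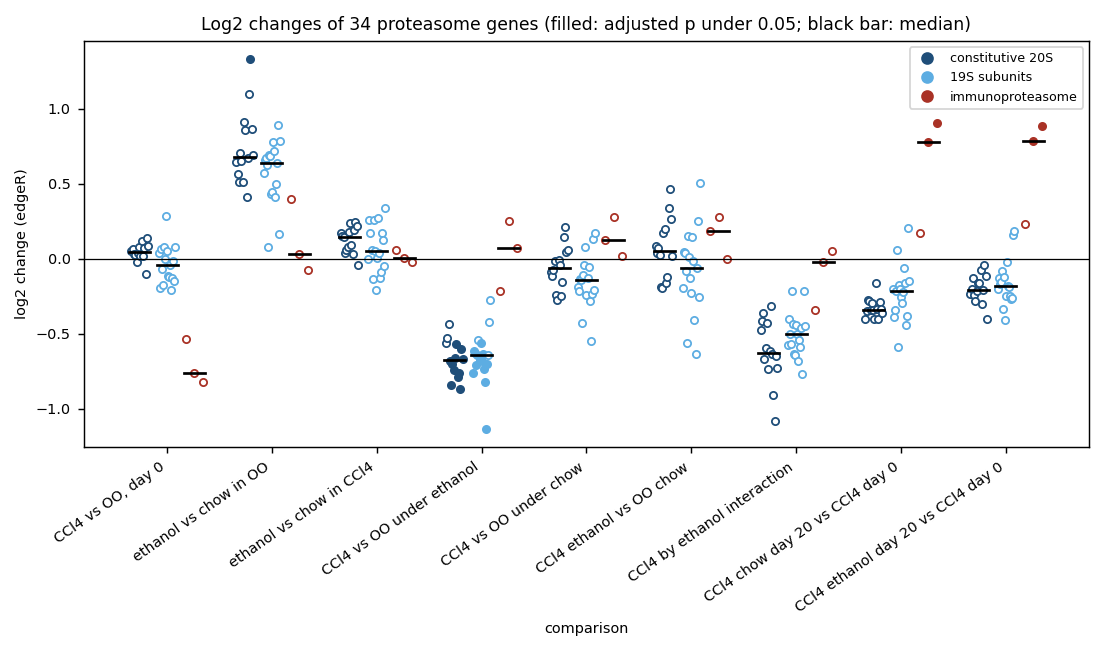
Points are edgeR log2 changes of the 34 constitutive 20S, 19S and immunoproteasome genes in 9 comparisons, filled where the adjusted p is under 0.05, with the median of each set as a black bar; comparisons share libraries. The constitutive 20S and 19S sets have medians of -0.68 and -0.64 for CCl4 against OO under ethanol. The immunoproteasome genes are lower at day 0 under CCl4, with none passing. Relative to CCl4 day 0, Psmb8 and Psmb9 pass as higher at day 20 and Psmb10 does not pass.

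At day 0, after CCl4 alone, both CCl4 libraries were below both OO libraries for the 3 immunoproteasome genes, without passing the threshold. In the OO libraries 1 and 2 Psmb8 was at 34.6 and 32.4 CPM, and in the CCl4 libraries 3 and 4 it was at 21.7 and 17.8 CPM. Psmb9 was at 13.5 and 13.1 CPM against 8.08 and 6.92 CPM, and Psmb10 at 37.1 and 30.5 CPM against 26.1 and 20.4 CPM. Libraries 3 and 4 held the lowest values of Psmb8 and Psmb9 in the series. The log2 changes were -0.76 ± 0.18, -0.82 ± 0.24 and -0.53 ± 0.20 (SE; edgeR's quasi-likelihood test, Benjamini-Hochberg adjusted p = 0.0508, 0.0999 and 0.186).

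None of the 49 genes passed at day 0, against 2.06% of all genes; 4 had an unadjusted p under 0.05, all lower, against 8.22% of all genes, and DESeq2 called 1, Psmb8 (adjusted p = 0.0136). Over the 11 alternatives the adjusted p of Psmb8 ran from 0.00474 to 0.326 and passed in 4. With only the 4 day 0 libraries fitted, Psmb8, Psmb9, Psmb10 and the activator Psme3 passed, all lower. Values without overlap were common in this comparison of 2 against 2, with 12 of 49 genes lower against 29.0% of all genes and 3 higher against 30.5%. The constitutive 20S had a median log2 change of 0.04 and the 19S of -0.04. Psmb5, at 69.2 and 77.6 CPM against 71.0 and 65.6 CPM, overlapped, as did Psmb7 at 96.9 and 111 CPM against 110.4 and 110.5 CPM. Psme1 was lower in both CCl4 libraries, at 62.6 and 62.4 CPM against 54.5 and 51.5 CPM, and Psme2, at 43.5 and 46.0 CPM against 42.0 and 45.4 CPM, overlapped; their log2 changes of -0.24 ± 0.12 and -0.04 ± 0.17 (SE) did not pass.

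Tap1, the peptide transporter subunit that lies beside Psmb9 (chr17:34187553-34197225, plus strand), fell at day 0, from 32.8 and 32.6 CPM to 19.7 and 21.5 CPM (log2 change -0.67 ± 0.14, SE; edgeR, adjusted p = 0.0317). Its annotated exons overlap those of Psmb9 on the opposite strand, and the use of strand in counting is not given in the sources used here, so reads of their shared stretch cannot be assigned. All 11 MHC class I processing genes had a negative log2 change and 1 passed, against 2.06% of all genes. Of 16 interferon and IRF regulators 12 were negative and 0 passed, Irf1 at -0.01 ± 0.21 and Nlrc5 at -0.54 ± 0.29 (log2, SE). The macrophage and dendritic markers summed to 407 and 354 CPM against 353 and 327 CPM, with 5 of 9 higher, 4 lower and Csf1r, the macrophage growth factor receptor, called lower (-0.74 log2). Of the other lists, Zfand5, which binds ubiquitin chains and the proteasome, rose by 0.71 and Hspb1 fell by 1.91 on the log2 scale.

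From day 0 to day 20 Psmb8 and Psmb9 rose in CCl4 animals, whether fed chow or given ethanol. Both comparisons share the day 0 libraries 3 and 4. Psmb8 was at 31.3 and 36.6 CPM in chow libraries 16 and 17, and with the ethanol libraries at 39.5, 30.04 and 32.5 CPM all 5 day 20 values lay above both day 0 values. Psmb9 was at 14.1 and 14.1 CPM under chow and 16.0, 10.2 and 15.4 CPM under ethanol, also all above day 0. Log2 changes were 0.78 ± 0.17 for Psmb8 and 0.90 ± 0.24 for Psmb9 under chow (SE; edgeR's quasi-likelihood test, Benjamini-Hochberg adjusted p = 0.0173 and 0.0327), and 0.78 ± 0.16 and 0.88 ± 0.22 under ethanol (SE; adjusted p = 0.0057 and 0.015). Psmb10, at 23.6 and 28.9 CPM under chow, overlapped day 0 and changed by 0.17 ± 0.20 (log2, SE; edgeR, adjusted p = 0.619).

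Under chow 3 of the 49 genes passed, against 11.5% of all genes: Psmb8 and Psmb9 higher, against 7.27% in that direction, and the base chaperone Psmd9 lower, against 4.2%. Psmd9 went from 30.9 and 28.1 CPM to 18.7 and 21.6 CPM without overlap (log2 change -0.55 ± 0.14, SE; edgeR, adjusted p = 0.0293). Under ethanol 2 passed, Psmb8 and Psmb9, both higher, against 20.7% of all genes and 11.6% in that direction. Constitutive 20S genes were lower at day 20 in all 14 log2 changes of each comparison, and 0 of 14 passed in either. Their medians were -0.34 and -0.21, against 0.02 and 0.02 over all tested genes. Values without overlap were lower for 29 of 49 genes under chow, against 29.7% of all genes, and for 16 of 49 under ethanol, against 27.1%, and higher for 3 and 5, against 30.9% and 28.3%. Leaving out 1 library at a time left 0 to 1 called gene under chow and 0 to 4 under ethanol. Psmb8 lost its call under chow without library 3, 4 or 17, and under ethanol without library 4 (edgeR, adjusted p = 0.0829, range over 12 alternatives 0.000536 to 0.0829). Psmb9 lost it under chow without library 3, 4, 16 or 17 and under ethanol without library 3, 4 or 18.

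The same lists were counted against the 7.27% of all genes that rose under chow and the 11.6% that rose under ethanol. Under chow 5 of 16 interferon and IRF regulators rose and 0 fell, among them Irf8 (1.29 log2), Irf7 (1.22 log2), Ciita (1.30 log2) and Ifngr1 (0.65 log2). Of 11 MHC class I processing genes 1 rose, Tap1 (0.72 log2), a share near that of all genes. The ubiquitin-like modifiers Isg15 (1.71 log2) and Ubd (2.49 log2) and Uba7, the activating enzyme of Isg15 (0.71 log2), made up 3 of 12 ubiquitin genes that rose. Both modifiers started low in the CCl4 day 0 libraries, Ubd at 0.30 to 0.44 CPM and Isg15 at 1.88 to 2.08 CPM. The log2 changes of Ubd thus rest on few day 0 reads. Under ethanol the 2 of 16 regulators that rose, Irf8 (1.37 log2) and Ifngr1 (0.81 log2), and the 1 of 12 ubiquitin genes, Ubd (2.34 log2), were near the share of all genes. Of 11 MHC class I processing genes 3 rose under ethanol, Tap1 (0.67 log2), Tap2 (0.50 log2) and the class I heavy chain H2-D1 (0.61 log2). Of 14 genes of the NRF1 and NRF2 axis, Nfe2l2 rose in both (0.84 and 0.82 log2), and under ethanol Srxn1 rose (0.93 log2) and Gclc fell (-0.97 log2). Irf1 (0.20 and 0.08 log2), Nlrc5 (0.58 and 0.38 log2), B2m (-0.06 and -0.02 log2), Nfe2l1 (0.07 and 0.10 log2) and Pomp (-0.16 and -0.12 log2) passed under neither. Macrophage and dendritic markers were called higher in 8 of 9 under chow and 6 of 9 under ethanol, their summed level being 327 and 353 CPM at day 0 and 1072 to 1518 CPM at day 20. Their part in the rise of Psmb8 and Psmb9 was not tested.

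The immunoproteasome share of each catalytic pair, in percent of CPM per kb, put these changes on a common scale. Psmb8 made up 21.6% and 18.7% of Psmb8 plus Psmb5 in OO libraries at day 0, 14.4% and 13.0% in CCl4 libraries at day 0, and 26.2% and 24.3% in CCl4 with chow at day 20. Under ethanol at day 20 it was 17.5%, 11.5% and 8.25% in OO libraries 13, 14 and 15 and 24.0%, 18.5% and 24.2% in CCl4 libraries 18, 19 and 20. The OO ethanol libraries were all below the CCl4 ethanol libraries, and library 12 (24.4%) and library 5 (26.6%), the OO chow libraries, were above all OO ethanol libraries, library 6 of day 23 included (14.9%). Day 0 CCl4 shares were low with Psmb5 near its day 0 OO level, and OO ethanol shares were low with Psmb8 at 25.0 to 31.3 CPM and Psmb5 at 79.7 to 153 CPM. Psmb9 made up 3.48% to 9.70% of Psmb9 plus Psmb6 over the series, lowest in library 15 and next in libraries 4 and 3 (3.78% and 3.82%). Psmb10 made up 14.0% to 27.6% of Psmb10 plus Psmb7. These shares are descriptions and compare RNA, not assembled proteasomes.

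**Figure D5:**
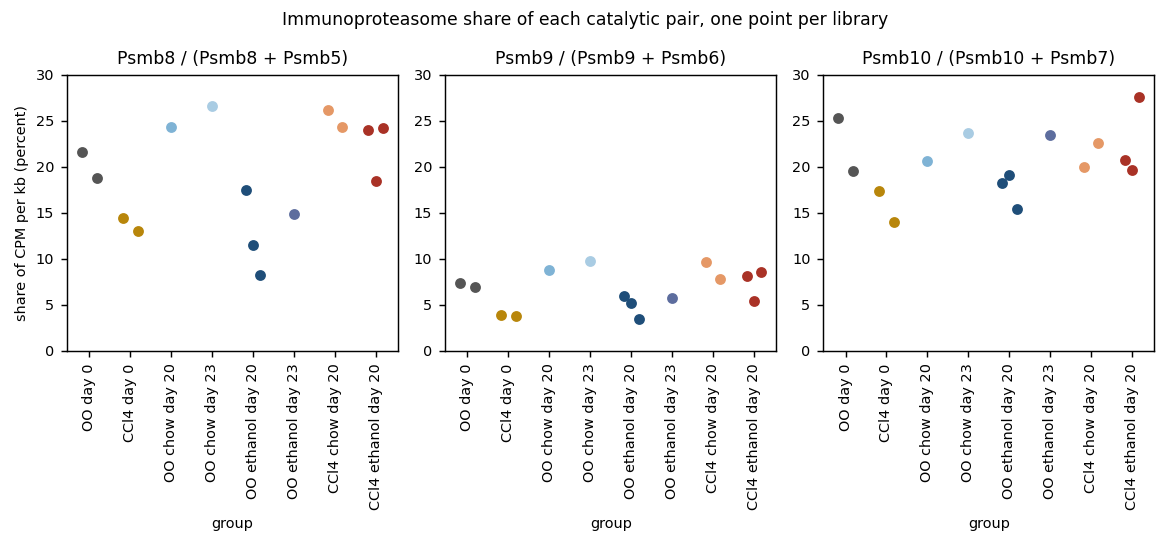
Each point is a library's share, in percent of CPM per kb of transcript, of an immunoproteasome subunit in the sum with its constitutive counterpart, for 8 groups. The Psmb8 share lies between 8.25% and 17.5% in OO with ethanol at day 20 and between 18.5% and 24.2% in CCl4 with ethanol at day 20.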

How the data were processed

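Whole-liver messenger RNA of 15 mouse samples was sequenced from Illumina TruSeq libraries, per the labels' protocols. The authors deposited unnormalised counts, 1 whole number per gene symbol and library; GSNAP, mm10 and DESeq2 1.12.3 are named in the submitters' processing notes. Which program and annotation counted the reads, and whether strand was used, is not given in the sources used here. Gene counts were 41.4% to 53.0% of all reads; the rest (reads not unique, ambiguous, outside genes or unaligned) were left out. Reads with more than 1 alignment were not counted, so genes with close copies, such as Psme2b, are uncertain. Like Psmb9, the genes Psma4, Psmb7, Psmc3, Psmc3ip, Psmd1, Psmd13 and Psme1 have exons that overlap a counted gene on the opposite strand. Exons of Psmb5 and Psme2b overlap a counted gene on the same strand, Mir686 and 9930111J21Rik1. Reads of those stretches cannot be assigned with certainty either.

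Members were chosen by symbol, and the members and lists were chosen with earlier results of these data known. After filterByExpr 14778 genes were left; with TMM factors, edgeR 4.0.16 (R 4.3.3) fitted 1 mean per group over all 15 libraries, leaving 7 residual degrees of freedom. Each of 9 contrasts was tested by quasi-likelihood, with p-values adjusted over all tested genes by Benjamini-Hochberg and called at 0.05; a group of 1 library is assumed to vary like the others. The SE given with edgeR is the absolute log2 change divided by the square root of the quasi-likelihood F value. The script was tested on simulated data. Levels per kb used the principal transcript of GENCODE M21. Alternatives were RLE scaling, no filter, DESeq2 1.42.0, limma-voom (limma 3.58.1) with lane as a random block, only the libraries compared, another chow control, and each library left out. The fits without libraries 6 and 12 and without 13 and 16 were chosen after seeing the data. Per-library values are given for the catalytic pairs, Psme1 and Psme2, and for up to 6 called members per direction and comparison with the largest log2 change; up to 4 called genes per pathway list with the smallest adjusted p are named, and Pomp, Nfe2l1, Irf1, Nlrc5, Tap1 and B2m whatever their p; the results of a few genes of these lists are not reported here. Names outside this rule (Psmd10 among levels, Gclm, Ifngr1 under chow, marker genes, the lists of genes by call) were chosen after their values were seen. Days follow the labels (20 or 23), although the file names have 28D there.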

Additional observations from a re-analysis of the deposited data

How the results depend on the processing

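Of 5237 single-gene results under alternatives, 5022 stayed on their side of the threshold, 127 gained a call and 88 lost it, and no called change reversed. RLE scaling moved no count of called genes. For CCl4 against OO at day 0 the count of 0 became 1 with no filter, 1 with DESeq2, 4 with only the libraries compared and 2 without libraries 13 and 16. For ethanol in OO animals the count of 1 became 11 with DESeq2, 2 with limma-voom, 0 with only the libraries compared, 0 with the day 23 chow control, 11 with both chow controls and 31 without libraries 13 and 16, and 0 to 25 leaving out 1 library. For CCl4 under ethanol the 29 became 15 with only the libraries compared and 15 to 38 leaving out 1 library. For CCl4 under chow, CCl4 with ethanol against OO chow and the interaction the 0 became 1, 2 and 7 without libraries 13 and 16, and 1 for the second with both chow controls. From CCl4 day 0 to day 20, the chow count of 3 ran from 0 to 1 leaving out 1 library; the ethanol count of 2 ran from 0 to 4, and was 5 with only the libraries compared and 5 without libraries 13 and 16. The cause was not tested. No paired analysis was possible because the library numbers are unique and no 2 groups share one. Groups hold 1 to 3 libraries, and Psmb9 had 70 to 380 reads per library. The 3 against 3 comparison shares no lane, so limma-voom with lane as a block (lane correlation -0.08) cannot separate lane from CCl4 there.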

Other observations

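Libraries 5 (chow) and 6 (ethanol), the OO pair of day 23, have no replicate, so no test was made. All 14 constitutive 20S genes were higher with ethanol, with a median log2 ratio of 0.24 after 0.5 CPM was added to each level, against -0.01 over all tested genes. Psmb5 was at 62.2 CPM with chow and 98.8 CPM with ethanol, Psmb6 at 95.8 and 134.6 CPM and Psmb7 at 96.0 and 111 CPM. Of the 17 subunits of the 19S regulator 12 were higher and 5 lower, with a median of 0.14. Of the 3 immunoproteasome genes Psmb8 (40.8 and 31.3 CPM) and Psmb9 (17.4 and 13.9 CPM) were lower and Psmb10 (33.5 and 38.6 CPM) higher. Psme1 was at 60.8 and 79.3 CPM, the latter its highest value of the series. Library 5 had more macrophage and dendritic marker RNA (719 against 292 CPM) and library 6 carried pancreas transcripts; their part in these values was not tested.

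Library 13 of OO with ethanol at day 20 was below the mean of libraries 14 and 15 by a median log2 difference of -0.50 over the 31 core subunits. It held the highest value of the series for 4 of the 31, near the 11.6% of all tested genes for which it was highest. Among the 4 were Psmd3 (81.3 CPM) and Psmd7, a lid subunit (69.2 CPM, against 49.9 and 50.0 CPM in libraries 14 and 15). The alpha subunit Psma1 was at 82.2 CPM in library 13, against 136 and 153 CPM in libraries 14 and 15. Psmd14, the deubiquitinase of the 19S lid, was at 51.7 CPM in library 13, against 94.4 and 98.3 CPM. Both values of library 13 lay inside the range of the other groups.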
